A study of Homo sapiens with 24 samples.

Results

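Interferon-stimulated genes (ISGs) were followed as a set of 50 genes, picked by gene name from the 58735 genes counted in each library. Each name matched 1 row of the count table, and all 50 are accounted for. RNA was sequenced from clones of OE33 and SK-GT-4, which are human esophageal adenocarcinoma (EAC) cell lines. In each line, Cas9 control clones, which carry an empty Cas9 vector and keep cGAS, were set against clones in which CRISPR-Cas9 had knocked out cGAS (cGAS KO). Clones of both genotypes were kept for 48 hours with the solvent DMSO or with 500 nM reversine, which blocks the mitotic checkpoint kinase MPS1 (hence MPS1i), so that chromosomes missegregate and chromosomal instability is induced. The line, the genotype and the treatment made 8 groups of 3 libraries, 1 from each of 3 batches and 24 in all. The labels do not name the clones behind a library, so loss of cGAS and any other difference between clones cannot be told apart. The spread within a group is that between batches.

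ISGs are the genes that a cell switches on after interferon binds its receptor. Receptor kinases then phosphorylate STAT2, which acts with IRF9 at the interferon-stimulated response element (ISRE) in promoters. Factors of the IRF family can also act on such elements directly, so that some ISGs, the IFIT genes among them, can respond to a DNA or RNA sensor with no interferon made. cGAS is the sensor of DNA in the cytosol, including DNA of missegregated chromosomes, and signals through STING and the kinase TBK1 to IRF3. The products of ISGs block viral entry, bind or destroy foreign RNA, or attach the ubiquitin-like protein ISG15 to other proteins, and a few are brakes on the response.

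The core of the ISRE was looked for in the RefSeq promoter windows (GRCh38.p14), which run from 250 bases before to 50 bases after each annotated start. A window was found for 39 of the 50 members. The motif (GAAA, any 2 bases, then GAAA), read on either strand, was in a window of 27 of these 39 genes (69.2%) and of 4.38% of all 27305 genes that have a window. The 12 members with a window and no match were STAT2, IRF1, IRF9, DDX58, OAS1, UBE2L6, HERC6, CMPK2, ADAR, IFI35, SP100 and XAF1. For IRF7, DHX58, IFIT2, OAS2, OASL, MX2, GBP2, IFITM2, UBA7, USP18 and TRIM22 no window was found. A match is a description of the sequence, and binding was not measured here.

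The 180 bases directly upstream of the start are shown 5′ to 3′ on the strand of the gene, with motif matches in capitals. The 6 members shown were taken from those named below whose window holds the motif. They are IFIT1 (chr10:89392443-89392622, plus strand), ISG15 (chr1:1013317-1013496, plus), IFI27 (chr14:94110556-94110735, plus), IFI6 (chr1:27672193-27672372, minus), HERC5 (chr4:88456939-88457118, plus) and IFITM1 (chr11:313860-314039, plus).
IFIT1: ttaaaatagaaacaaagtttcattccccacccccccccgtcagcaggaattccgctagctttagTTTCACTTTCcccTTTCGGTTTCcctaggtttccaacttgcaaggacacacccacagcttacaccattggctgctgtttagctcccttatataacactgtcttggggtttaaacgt
ISG15: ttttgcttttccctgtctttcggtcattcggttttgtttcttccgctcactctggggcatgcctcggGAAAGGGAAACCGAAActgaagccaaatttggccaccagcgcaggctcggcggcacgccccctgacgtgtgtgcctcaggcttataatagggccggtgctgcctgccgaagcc
IFI27: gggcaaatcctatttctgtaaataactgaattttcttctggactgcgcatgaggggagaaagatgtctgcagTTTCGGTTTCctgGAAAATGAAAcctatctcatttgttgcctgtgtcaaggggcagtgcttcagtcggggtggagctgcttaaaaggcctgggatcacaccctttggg
IFI6: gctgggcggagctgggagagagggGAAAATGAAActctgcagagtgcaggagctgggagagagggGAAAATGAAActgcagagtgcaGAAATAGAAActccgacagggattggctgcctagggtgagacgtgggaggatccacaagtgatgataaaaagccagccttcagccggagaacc
HERC5: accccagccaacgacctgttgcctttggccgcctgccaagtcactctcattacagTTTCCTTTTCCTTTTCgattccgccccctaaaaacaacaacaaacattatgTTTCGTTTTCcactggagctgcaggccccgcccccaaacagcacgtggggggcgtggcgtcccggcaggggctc
IFITM1: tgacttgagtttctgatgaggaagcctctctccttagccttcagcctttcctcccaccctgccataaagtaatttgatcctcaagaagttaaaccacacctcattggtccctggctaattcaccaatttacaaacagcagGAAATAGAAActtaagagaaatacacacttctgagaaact
In IFIT1 the matches begin 116 and 103 bases before the start, and in IFI27 108 and 95 bases before it. Those of ISG15, at 113 and 107 bases, overlap, as do those of HERC5 at 125 and 119 bases, where a further match lies at 74 bases. IFI6 holds 3 matches, and IFITM1 has its 1 match close to the start, at 40 bases.

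Gene counts per library summed to between 15561268 and 25284177. CGAS, the targeted gene, was at 29.7 to 34.6 CPM, the count scaled to library size, in OE33 Cas9 cells in DMSO and at 28.6 to 40.7 in MPS1i. In OE33 cGAS KO it was at 2.23 to 2.72 CPM in 5 libraries, but at 15.3 in the library labelled cGAS KO DMSO replicate 2, which goes against its label. SK-GT-4 had it at 15.3 to 26.1 CPM in Cas9 and at 2.3 to 6.19 in cGAS KO. Among the SK-GT-4 libraries, replicate 2 of Cas9 in MPS1i and replicate 1 of cGAS KO in DMSO stood apart from the others. Their genes deviated from the mean of all libraries of the line with gene length (Spearman correlations across genes of -0.41 and -0.43), short genes being high in both. Replicate 2 of cGAS KO deviated the other way in DMSO (0.376) and in MPS1i (0.377), short genes being low, and was not set apart. In OE33, replicate 1 of cGAS KO in DMSO deviated with length too (-0.303), short genes being high. Replicate 3 of OE33 cGAS KO deviated the other way in DMSO (0.241) and in MPS1i (0.203). These OE33 libraries were not set apart, and the part of gene length in the results was not tested. Counts of members called are given with and without the libraries that stood apart or went against their label, where they moved. Replicates varied more in SK-GT-4 (a biological coefficient of variation of 34%) than they did in OE33 (15%). Keratins and the other epithelial markers listed summed to 15973 to 21728 CPM across OE33 libraries, and for SK-GT-4 the range was 3753 to 19683. The summed leukocyte markers lay at 1.41 to 7.12 CPM in OE33 and 3.66 to 34.5 in SK-GT-4, fibroblast markers at 0.468 to 6.81 and 4.41 to 83.1, and endothelial markers at 0 to 0.356 and 5.59 to 19.2. The part of these cell types in the results was not tested.

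The first question was how far the ISGs were expressed before any treatment, in Cas9 cells in DMSO. Of the 50 members, 22 were higher in OE33 than in SK-GT-4 and 3 lower (edgeR, adjusted p ≤ 0.01 over all genes), against a background of 9.63% of 25181 genes called higher and 12.4% called lower. The median log2 difference was 1.30 over the members, and -0.14 over all genes. Of the ISRE-binding factors and sensors, STAT2, IRF1, IFIH1 and DDX58 were among the 22.

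BST2, or tetherin, which holds budding virus on the cell surface, was at 102, 65.9 and 112 CPM in the OE33 libraries and at 0.0521, 0.257 and 0 CPM in those of SK-GT-4 (log2 difference 9.80 ± 0.96 SE, adjusted p = 1.71e-08). SK-GT-4 had next to no BST2. RTP4 showed the same split, with 6, 2.57 and 3.76 CPM in OE33 and 1 read in the 3 SK-GT-4 libraries together. IFITM2, which restricts viral entry at membranes, went the other way. It was at 79.9, 93.3 and 63.3 CPM in SK-GT-4, and no read was counted in the 3 OE33 libraries. Set against a floor of 3 counts over that group, IFITM2 was at least 1550-fold higher in SK-GT-4. IFITM1 and IFITM2 overlap on the same strand, so the counting can split their reads.

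Several antiviral enzymes and sensors differed by less than BST2 and RTP4. TRIM21, a cytosolic antibody receptor and ubiquitin ligase, was at 37.3, 38.9 and 30.1 CPM in OE33 and at 8.6, 6.59 and 6.6 in SK-GT-4 (2.33 ± 0.22, adjusted p = 1.23e-08). IFIH1, the RNA sensor MDA5, was at 37.7, 23 and 22.3 CPM against 4.64, 1.93 and 2.79 (3.20 ± 0.40). The groups did not overlap for either gene. IFIT5 (2.00 ± 0.24), PARP9 (2.57 ± 0.36), PARP14 (3.12 ± 0.44) and the mitochondrial nucleotide kinase CMPK2 (3.70 ± 0.53) were higher in OE33 as well, as was the transcription factor IRF1 (1.93 ± 0.30, adjusted p = 1.59e-05). MX1, a dynamin-like GTPase that traps viral particles, was at 17.3, 8.46 and 15.8 CPM in OE33 and at 3.75, 4.45 and 2.08 in SK-GT-4 (2.06 ± 0.60, adjusted p = 0.00993). Its call was lost with a replicate block by batch number, with RLE factors, with the filterByExpr filter, and without replicate 1 or 3.

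Part of the set did not follow that order. HERC5, the ligase that attaches ISG15, was lower in OE33 (-2.60 ± 0.65, adjusted p = 0.0032), and so was OASL, a member of the oligoadenylate synthetase family without that activity (-1.62 ± 0.46, adjusted p = 0.008). Neither was called once any 1 replicate number was left out. IFIT1 was at 10.9, 4.33 and 7.83 CPM in OE33 and at 31.9, 23.7 and 21.6 in SK-GT-4, without overlap, and missed the threshold (-1.70 ± 0.54, adjusted p = 0.0175). IFIT2, at 14.4, 11 and 12.5 CPM against 15.1, 13 and 12.4, differed by -0.05 ± 0.38. ISG15 (-0.47 ± 0.49) and OAS1 (-0.46 ± 0.33) were not called.

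**Figure D1:**
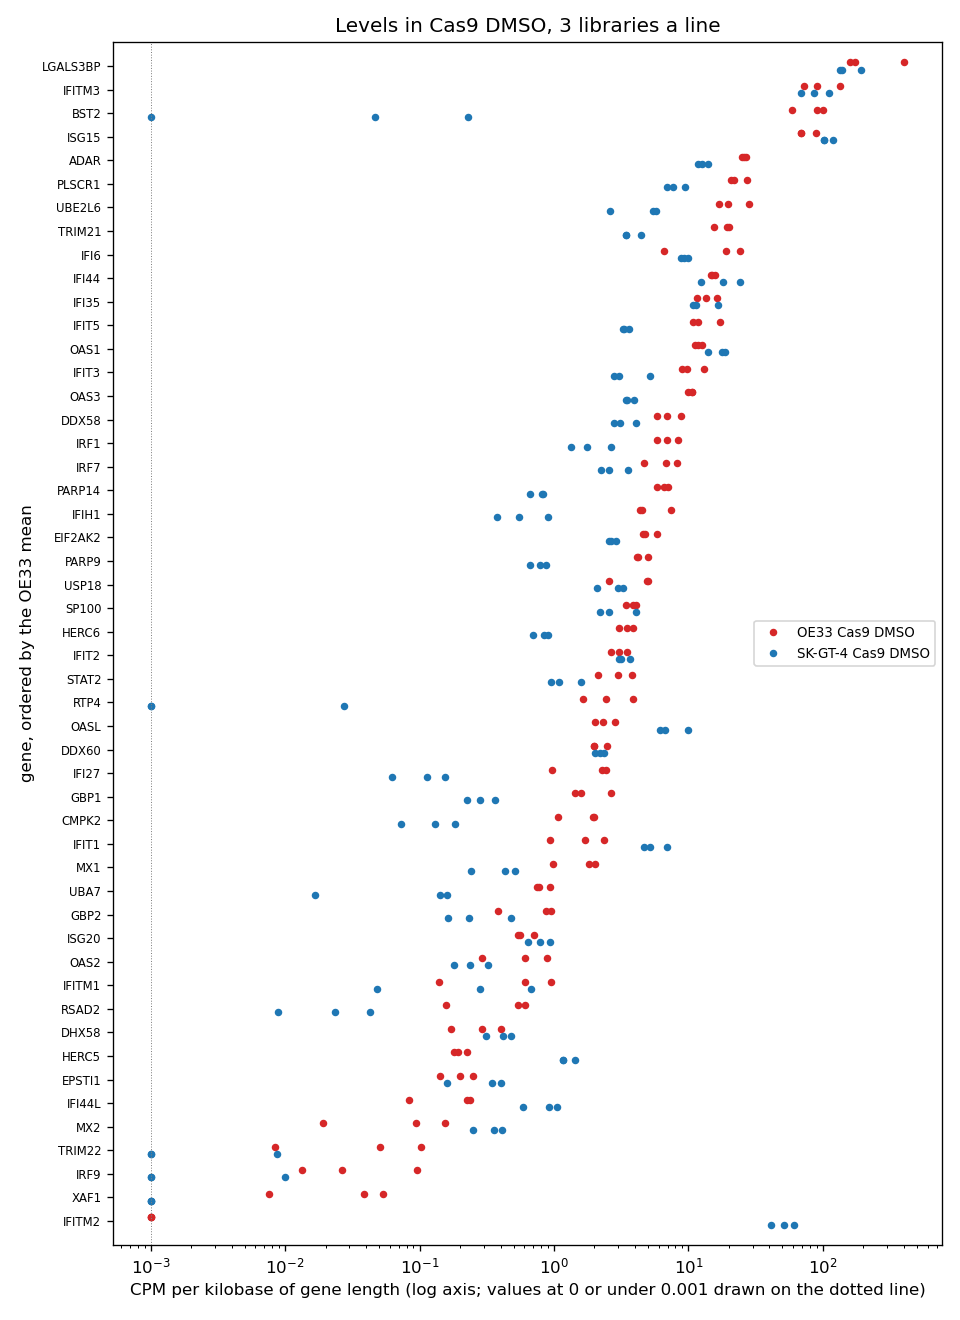
Level of each of the 50 ISGs in Cas9 cells in DMSO, as CPM per kilobase of gene model on a log axis. Each of the 3 libraries a line is a dot, red for OE33 and blue for SK-GT-4. Genes are ordered by the OE33 mean, and values at or very near 0 are drawn on the dotted line. LGALS3BP, IFITM3 and ISG15 are among the highest in both lines, while BST2 and RTP4 are far higher in OE33 and IFITM2 is far higher in SK-GT-4.

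Per kilobase of gene model, the highest ISG in Cas9 DMSO cells of both lines was LGALS3BP, a secreted glycoprotein, at 245 CPM per kilobase in OE33 and 155 in SK-GT-4. IFITM3 (99.2 and 88.3) and ISG15 (75.5 and 108) were near the top in both. In OE33, BST2 lay between them at 83.4 CPM per kilobase. At the other end, IRF9 had 0.045 CPM per kilobase in OE33 but 0.00332 in SK-GT-4, while XAF1 had no read in the SK-GT-4 libraries. IRF9 is the DNA-binding part of the factor that interferon activates, and its row held 92 counts over all 24 libraries. It overlaps the protein-coding gene AL136295.5 (47 counts) on the same strand, so the counting can split or drop its reads.

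The next question was whether MPS1i moved the ISGs. In OE33 Cas9 cells edgeR called none of the 50 members at the same threshold, where 0.0049% of 20426 genes were called higher and 0% lower, and DESeq2 called 0 as well. At an unadjusted p under 0.05, 10 members were higher and 0 lower (9 and 0 in DESeq2), where 3.52% and 3.43% of all genes were. Log2 differences were above 0 for 41 members and below 0 for 9, where 50.8% of all genes were above 0, with a median of 0.20 over the members and 0.01 over all genes tested. The batches gave medians of 0.10, 0.41 and 0.33.

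IFIT2, which binds RNA and inhibits translation, was at 14.4, 11 and 12.5 CPM in DMSO and at 26.6, 26 and 28.9 in MPS1i. All 3 MPS1i libraries lay above all 3 DMSO libraries. The log2 difference was 1.09 ± 0.29 (adjusted p = 0.40). IRF1, which switches on many ISGs, was at 65.7, 45.5 and 53.6 CPM in DMSO and at 79.4, 63.8 and 80.9 in MPS1i, higher in each batch although the groups overlapped (0.44 ± 0.12, adjusted p = 0.413). UBE2L6, the enzyme that hands ISG15 to its ligases, was at 61.5, 36.9 and 43.2 CPM in DMSO and at 74.5, 59.8 and 69.9 in MPS1i (0.55 ± 0.14, adjusted p = 0.365). IFIT1 (0.14 ± 0.33), ISG15 (0.19 ± 0.17), MX1 (0.35 ± 0.35) and OAS1 (0.21 ± 0.18) lay within the spread between libraries.

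These calls depended on how batches were paired. With a replicate block for each genotype and batch, in place of 1 block shared by both genotypes, IFIT2 was called (1.11, adjusted p = 1.26e-06), together with UBE2L6 (0.55, adjusted p = 0.00347) and GBP2, a guanylate-binding protein, making 3 of 50 called higher, where 0.299% of all genes were. IRF1 then missed the threshold (adjusted p = 0.0157).

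In OE33 cGAS KO cells, MPS1i gave 0 calls of 50 in edgeR and DESeq2 (0% of all genes in edgeR), and 4 members were higher and 2 lower at an unadjusted p under 0.05 in both tools (3.82% and 3.13% of all genes). Log2 differences lay above 0 for 17 members and below 0 for 33, where 50.4% of all genes lay above 0, and the median was -0.14. IFIT2 was at 13.5, 28 and 45.7 CPM in DMSO and at 20.1, 33 and 67 in MPS1i. Each batch was higher in MPS1i, but the groups overlapped widely (0.45 ± 0.28, adjusted p = 0.79). IFI44 (-0.78 ± 0.22, adjusted p = 0.587), GBP2 (0.98 ± 0.28, adjusted p = 0.589) and IRF1 (0.39 ± 0.12, adjusted p = 0.59) had the smallest p-values. With the block for each genotype and batch, GBP2 was called higher and IFI44 lower, where 0.343% and 0.152% of all genes were. Unadjusted, 7 members were then higher and 11 lower (6.05% and 5.62% of all genes). Without the library labelled cGAS KO DMSO replicate 2 there were 3 and 3 (2.93% and 2.29%).

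Whether the response to MPS1i was larger in Cas9 than in cGAS KO cells was tested as the difference of the 2 effects. In OE33 no member was called in edgeR or DESeq2 (0% of all genes in edgeR). At an unadjusted p under 0.05, 3 were higher and 0 lower (2 and 0 in DESeq2), where 1.04% and 0.837% of all genes were. The 3 were DHX58, an RNA helicase that tunes RNA sensing (1.30 ± 0.48), TRIM22 (1.27 ± 0.53) and OASL (0.75 ± 0.31), each with an adjusted p that rounded to 1. That unadjusted count of 3 was 16 with the block for each genotype and batch (1.44% of all genes) and 0 with no replicate block (0.788%). It was 9 without the library labelled cGAS KO DMSO replicate 2 (1.13%). Without replicates 1, 2 and 3 in turn it was 10, 1 and 3 (1.26%, 0.644% and 0.869%). In each of these settings 0 members were called. For IFIT2 the difference was 0.64 ± 0.40 and for IRF1 0.05 ± 0.17. The difference was above 0 for 44 members and below 0 for 6, where 50% of all genes were above 0, with a median of 0.30. By batch, the median was 0.0047 in batch 1, 0.40 in batch 2 and 0.44 in batch 3.

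**Figure D2:**
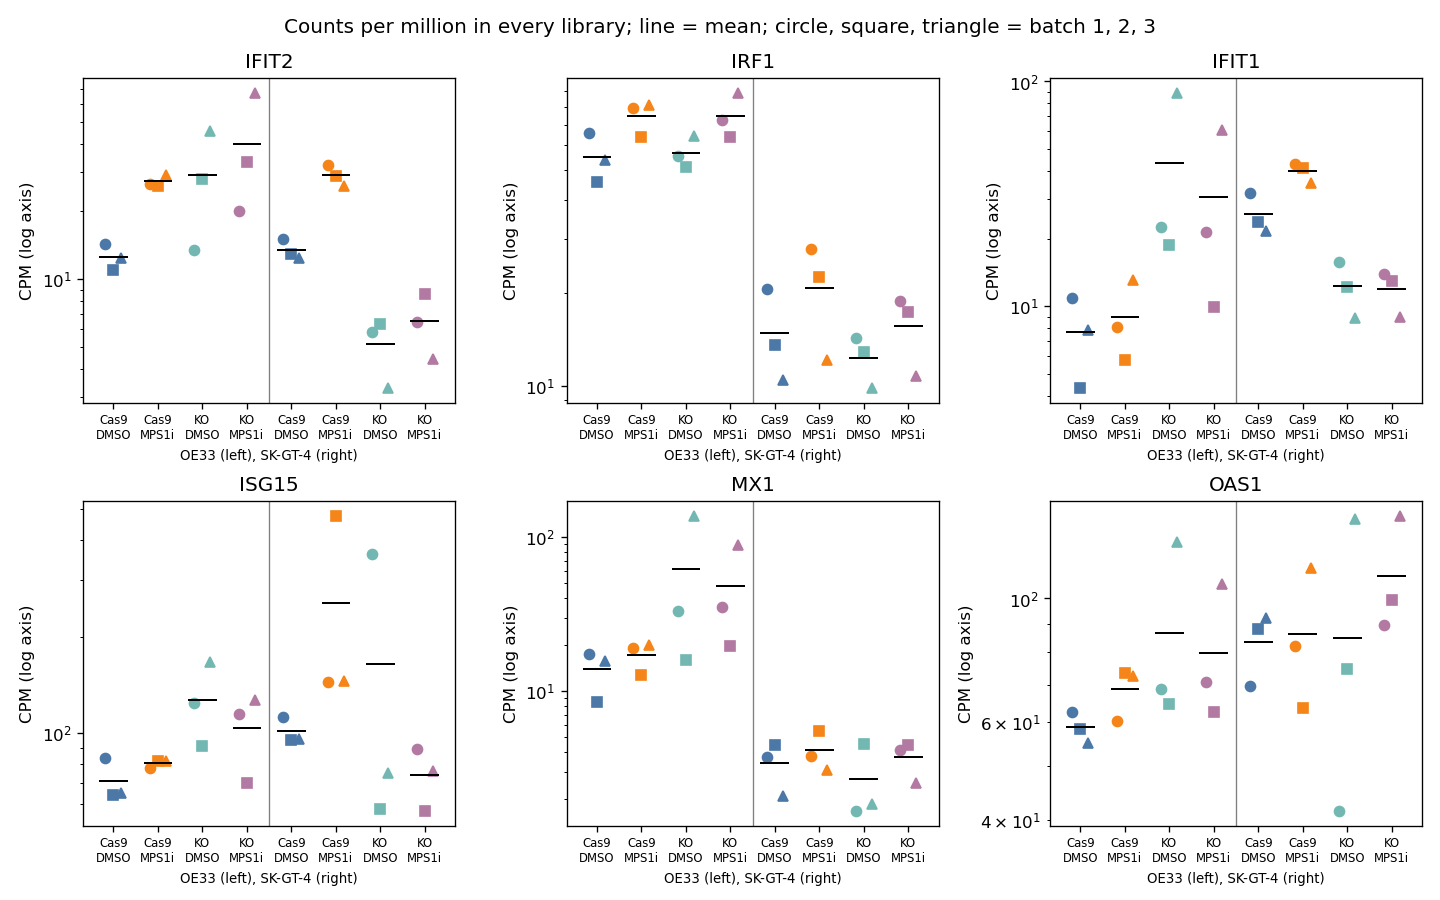
CPM on a log axis of IFIT2, IRF1, IFIT1, ISG15, MX1 and OAS1 in each of the 24 libraries, by group, with the group mean as a line and batches 1, 2 and 3 as circle, square and triangle. IFIT2 lies at 26 to 28.9 CPM in OE33 Cas9 MPS1i above 11 to 14.4 in DMSO, and at 3.29 to 8.58 in all SK-GT-4 cGAS KO libraries.

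In SK-GT-4 Cas9 cells MPS1i also gave no call among the 49 members tested (0% of 22782 genes in edgeR, and 0 members in DESeq2), XAF1 having failed the filter with no read. At an unadjusted p under 0.05, 4 were higher and 0 lower (8 and 0 in DESeq2), where 2.01% and 0.474% of all genes were. Without both libraries that stood apart 14 were higher and 0 lower, against 3.3% and 1.36% of all genes. The median was 0.31, with 37 members above 0 and 12 below, where 53.2% of all genes were above 0. IFIT2 was at 15.1, 13 and 12.4 CPM in DMSO and at 32.1, 28.8 and 25.9 in MPS1i. Again all MPS1i libraries lay above all DMSO libraries (1.10 ± 0.25, adjusted p = 0.981). IFIT1, a sensor of foreign RNA caps, was at 31.9, 23.7 and 21.6 CPM in DMSO and at 42.9, 41.2 and 35.3 in MPS1i, without overlap (0.64 ± 0.20, adjusted p = 0.981). RSAD2, or viperin, which makes a chain-terminating nucleotide, had 8 counts in the DMSO group and 51 in the MPS1i group (2.81 ± 0.72, adjusted p = 0.981). IRF1 was at 20.5, 13.6 and 10.5 CPM in DMSO and at 27.8, 22.5 and 12.1 in MPS1i (0.46 ± 0.22).

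ISG15, the ubiquitin-like modifier, turned on 1 library. It was at 112, 95.5 and 95.9 CPM in DMSO and at 145, 476 and 145 in MPS1i, where 476 is the replicate 2 that stood apart. Its log2 difference was 1.35 with all libraries and 0.26 without that library. With both libraries that stood apart left out (chosen after the data were seen), IFIT2 was called (1.2, adjusted p = 0.000161). In DESeq2 on all libraries IFIT2 missed it (adjusted p = 0.0231).

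For cGAS KO cells of SK-GT-4 no member was called in edgeR or DESeq2 (0% of all genes in edgeR). At an unadjusted p under 0.05, 1 was higher and 0 lower (0 and 0 in DESeq2), where 0.733% and 0.658% of all genes were. The median was 0.32, with 35 above 0 and 14 below, where 53.6% of all genes were above 0. IFIT2 was at 5.83, 6.36 and 3.29 CPM in DMSO and at 6.47, 8.58 and 4.44 in MPS1i (0.34 ± 0.25, adjusted p = 0.966). These libraries overlapped, unlike those of the Cas9 cells. RSAD2 had 0 and 4 counts, IFIT3 a difference of 0.77 ± 0.41 and GBP2 one of 1.03 ± 0.58. The effect of MPS1i in Cas9 minus that in cGAS KO gave no call in edgeR or DESeq2 (0% of all genes in edgeR), and 2 members were higher and 0 lower at an unadjusted p under 0.05 (3 and 0 in DESeq2), where 1.88% and 0.536% of all genes were. It was 0.76 ± 0.35 for IFIT2, 0.67 ± 0.29 for IFIT1 and 2.28 ± 0.88 for ISG15, with adjusted p = 0.823 for each. Without both libraries that stood apart, that for ISG15 was 0.35. Over the members the median difference was 0.01, with 26 above 0 and 23 below, where 49.3% of all genes were above 0.

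The effect of MPS1i in Cas9 cells was also compared between the lines, and no member was called in edgeR or DESeq2 (0% of 25181 genes in edgeR). At an unadjusted p under 0.05, 1 was higher in OE33 (IFITM2, 4.44 ± 1.59) and 2 lower (RSAD2, -2.29 ± 0.86, and BST2, -1.96 ± 0.90), where 0.862% and 0.866% of all genes were, 1 and 2 also in DESeq2. Each of these is close to silent in 1 of the lines. IFIT2 differed by 0.01 ± 0.43 and IRF1 by 0.0047 ± 0.26, values that took the other sign under some alternatives.

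**Figure D3:**
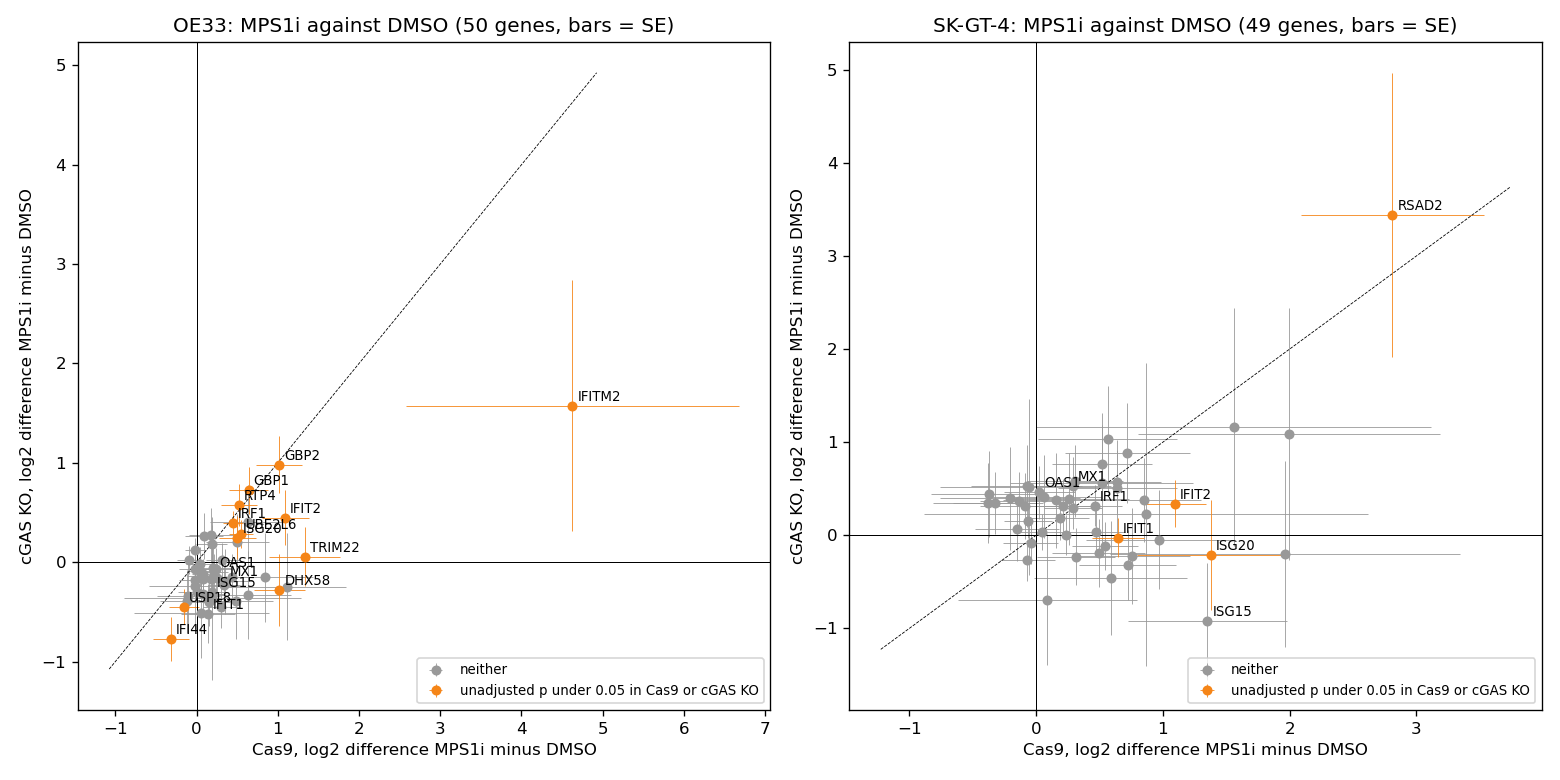
Log2 difference of MPS1i minus DMSO for each tested member, in cGAS KO cells against Cas9 cells, for OE33 (50 genes) and SK-GT-4 (49 genes), with bars of 1 SE and orange for an unadjusted p under 0.05 in either genotype. IFIT2 lies at 1.09 (OE33) and 1.10 (SK-GT-4) on the Cas9 axis and at 0.45 and 0.34 on the cGAS KO axis.

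Between genotypes, members were called in both lines, higher in cGAS KO in OE33 and lower in SK-GT-4, with DHX58 in OE33 the exception. In OE33 in DMSO, 10 of 50 members were higher in cGAS KO than in Cas9 and 0 lower, where 1% of 20426 genes were called higher and 0.465% lower. Unadjusted, 33 were higher and 0 lower at p under 0.05, against 9.28% and 8.2% of all genes. Above 0 lay 47 members, and 48.8% of all genes. The median log2 difference was 0.68 over the members and -0.01 over all genes. The 10 were IRF7 among the transcription factors, IFIT1, MX1, IFITM1, USP18, CMPK2, IFI27, IFI6, TRIM22 and EPSTI1. No RNA sensor and no OAS gene was called, though all 4 OAS genes were higher at an unadjusted p under 0.05.

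IFI27, a small mitochondrial membrane protein, was at 10.2, 4.03 and 9.47 CPM in OE33 Cas9 DMSO and at 447, 104 and 465 in cGAS KO DMSO. Each cGAS KO library lay far above each Cas9 library (5.30 ± 0.21, adjusted p = 2.8e-10). IFITM1, which blocks viral entry at the cell surface, was at 0.661, 0.151 and 1.03 CPM in Cas9 and at 3.04, 3.86 and 49.2 in cGAS KO (4.61 ± 0.66, adjusted p = 0.00076). IFI6, of the endoplasmic reticulum, was at 16.5, 5.69 and 20.8 CPM against 62.3, 24.4 and 288 (2.62 ± 0.38, adjusted p = 0.000798). Replicate 3 was the highest cGAS KO library for all 3 genes.

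EPSTI1 was at 1.22, 0.705 and 0.978 CPM in Cas9 and at 6.09, 1.44 and 10.6 in cGAS KO (2.41 ± 0.35, adjusted p = 0.000798). TRIM22, an antiviral ubiquitin ligase, was at 0.305, 0.0503 and 0.618 CPM against 2.11, 0.512 and 5.02 (2.90 ± 0.39, adjusted p = 0.0005), a gene of few reads whose groups overlapped. IFIT1 was at 10.9, 4.33 and 7.83 CPM against 22.6, 18.7 and 88.7, without overlap (2.19 ± 0.33, adjusted p = 0.00114). USP18, which removes ISG15 and damps the interferon receptor, was at 10.7, 5.49 and 10.5 CPM against 14.9, 15.3 and 27.2 (1.11 ± 0.18, adjusted p = 0.00251). IRF7, which amplifies interferon production, was at 21.6, 12.3 and 17.8 CPM against 44.4, 23.1 and 91.4 (1.46 ± 0.26, adjusted p = 0.00378).

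MX1 was at 17.3, 8.46 and 15.8 CPM in Cas9 and at 33.2, 16 and 136 in cGAS KO, where replicate 2 lay among the Cas9 libraries (1.74 ± 0.35, adjusted p = 0.00923). ISG15 was at 83.9, 64.2 and 64.9 CPM against 124, 90.8 and 167 and just missed the threshold (0.81 ± 0.17, adjusted p = 0.0119). IFIT2 gave 1.05 ± 0.29 (adjusted p = 0.0528), its groups overlapping, and IRF1, at 65.7, 45.5 and 53.6 against 55.3, 51 and 64.1 CPM, gave 0.05 ± 0.12. OAS1, which makes the signal that activates RNase L, was at 62.6, 58.3 and 55 against 68.7, 64.6 and 127 CPM (0.49 ± 0.18, adjusted p = 0.142).

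Much of the size of these differences was in batch 3. Its median over the members was 1.33, with 49 of 50 above 0, against 0.28 (35 of 50) in batch 1 and 0.45 (40 of 50) in batch 2. Without replicate 3 IFI27 alone was called, where 0.0322% of 18640 genes were called higher, and IFIT1 gave 1.56 (adjusted p = 0.0605). IFI27 was also the 1 member called with no replicate block, where 0.0441% of all genes were called higher. Without the library labelled cGAS KO DMSO replicate 2, whose CGAS level was 15.3 CPM, 19 members were called higher, where 2.92% of all genes were. Among markers of other cells, the monocyte gene CD14 was higher in cGAS KO in DMSO (1.23 ± 0.23, adjusted p = 0.00564) and missed the threshold in MPS1i (0.94 ± 0.23, adjusted p = 0.0171), with no other listed marker called in either. Its part in the results was not tested.

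**Figure D4:**
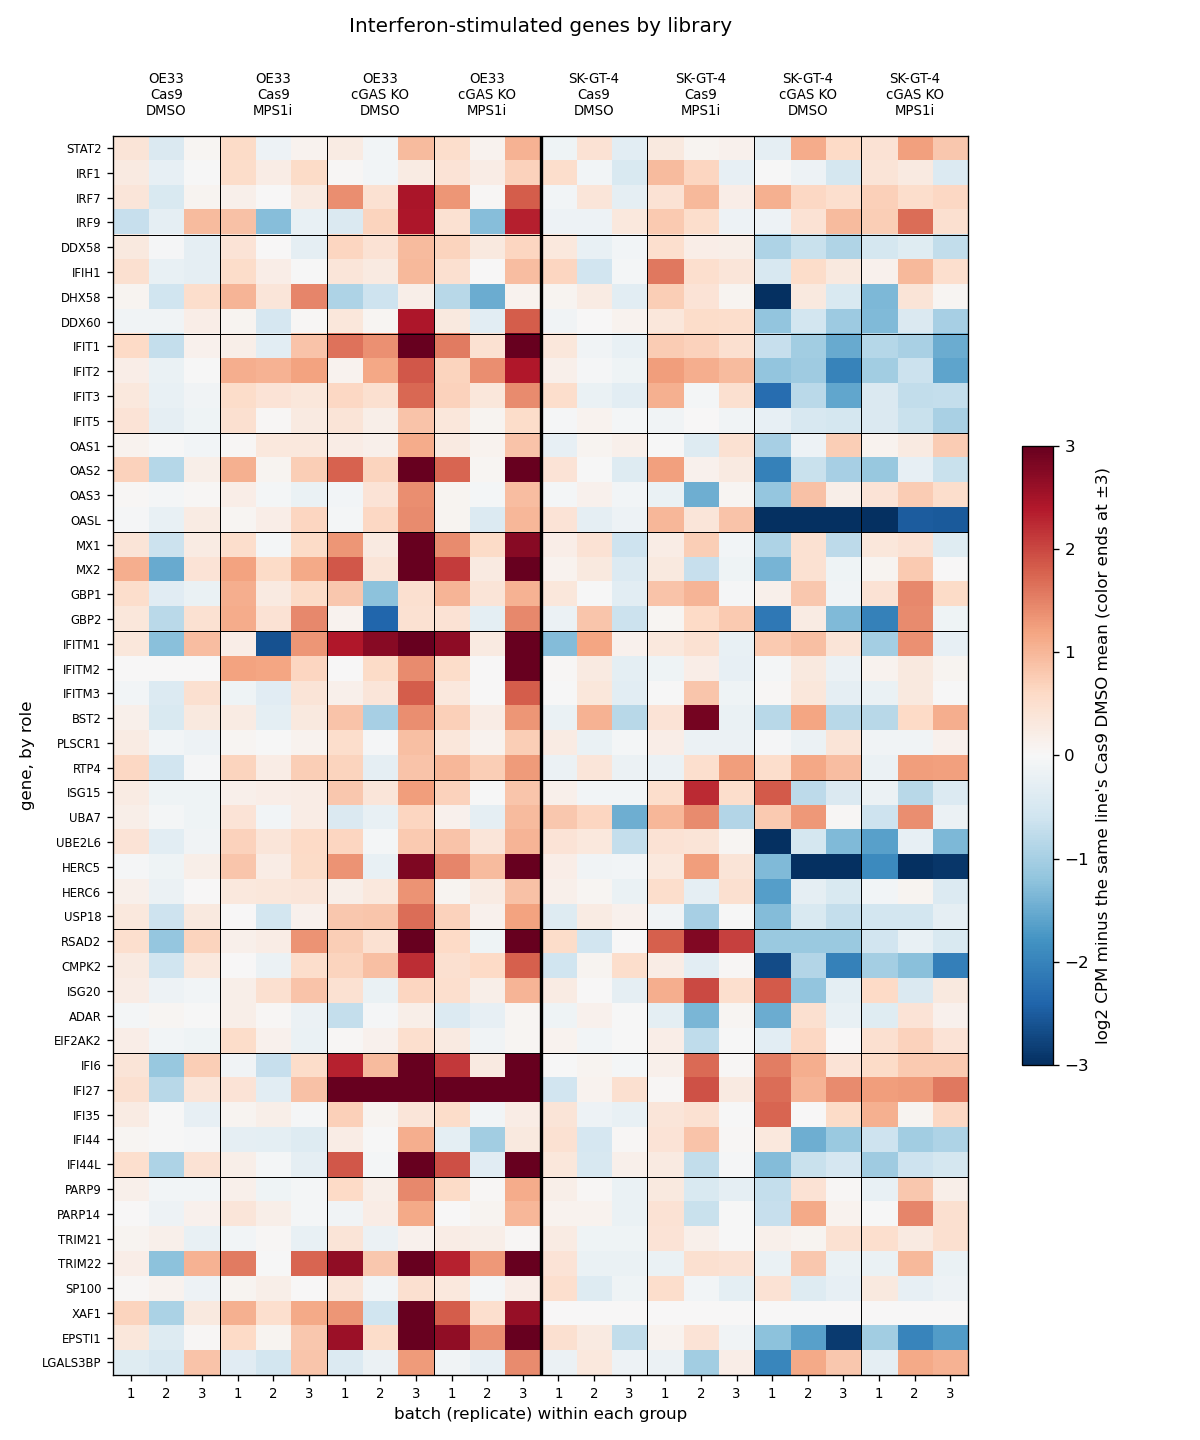
Log2 CPM of the 50 ISGs (grouped by role) in each of the 24 libraries, minus the mean of the same line's Cas9 DMSO libraries, with colors ending at -3 and 3. OE33 cGAS KO replicate 3 is above the Cas9 DMSO mean for 50 of 50 members in DMSO and in MPS1i, while replicate 2 is above it for 31 and 33.

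In MPS1i, OE33 cGAS KO against Cas9 gave 6 members higher and 1 lower, where 1.88% and 0.955% of all genes were called. Unadjusted, 22 were higher and 1 lower at p under 0.05 (11.3% and 9.95% of all genes), and 43 of 50 lay above 0, as did 48.2% of all genes. IFI27 (5.00 ± 0.21, adjusted p = 5.62e-10), EPSTI1 (2.11 ± 0.33), IFITM1 (4.03 ± 0.64), IFI6 (2.39 ± 0.38), IFIT1 (1.53 ± 0.32) and TRIM22 (1.63 ± 0.35) were called in both treatments. DHX58 was lower, at 0.546, 0.312 and 1.14 CPM in cGAS KO against 2.24, 1.38 and 3.06 in Cas9, without overlap (-1.80 ± 0.33, adjusted p = 0.00351). It was no longer called with any 1 replicate left out. MX1 did not pass (1.2 ± 0.34, adjusted p = 0.04). The batch medians were 0.26 and 1.05 in batches 1 and 3, and in batch 2 24 of 50 members lay above 0. Without replicate 3, and with no replicate block, IFI27 alone was called, where 0.059% and 0.0587% of all genes were called higher. Without replicate 1, 2 members were, and 0.474% of all genes.

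In SK-GT-4 the called members were lower in cGAS KO. In DMSO 2 of 49 were lower and 0 higher, where 0.658% of 22782 genes were called lower and 1.1% higher. OASL was at 34.7, 21.8 and 23.5 CPM in Cas9 and at 0.417, 2.91 and 2.58 in cGAS KO, with each cGAS KO library below each Cas9 library (-3.86 ± 0.58, adjusted p = 0.00384). IFIT2 was at 15.1, 13 and 12.4 CPM against 5.83, 6.36 and 3.29 (-1.43 ± 0.25, adjusted p = 0.00887). Its call was lost with no replicate block, with any 1 replicate number left out, and without cGAS KO DMSO replicate 1. OASL lost its call without replicate 3 only. IFIT1, at 31.9, 23.7 and 21.6 CPM against 15.7, 12.2 and 8.88, did not overlap either and missed the threshold (-1.09 ± 0.21, adjusted p = 0.0125). In all, 4 members were higher and 14 lower at an unadjusted p under 0.05, where 9.53% and 7.93% of all genes were. The median was -0.10, with 22 of 49 above 0, where 51.6% of all genes were.

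In MPS1i 5 members were lower in SK-GT-4 cGAS KO and 0 higher, where 0.597% and 0.812% of all genes were called. IFIT2 was at 32.1, 28.8 and 25.9 CPM in Cas9 and at 6.47, 8.58 and 4.44 in cGAS KO (-2.19 ± 0.26, adjusted p = 0.001). Its call was lost without replicate 1 or 3. IFIT1 was at 42.9, 41.2 and 35.3 CPM against 13.9, 13 and 8.94 (-1.76 ± 0.21, adjusted p = 0.00121). HERC5 was at 7.41, 14.2 and 7.76 CPM against 1.51, 0.569 and 0.696 (-3.54 ± 0.52, adjusted p = 0.00364). Its call was lost without replicate 2 or 3. Its promoter is among those printed above, with 3 motif matches. OASL was at 52, 33.8 and 47.3 CPM against 1.89, 4.51 and 4.44 (-3.70 ± 0.56, adjusted p = 0.00427). The helicase DDX60, a cofactor of RNA sensing, was at 18.7, 21.7 and 21.4 CPM against 5.88, 11 and 7.33 (-1.39 ± 0.24, adjusted p = 0.00829). Its call was lost with no replicate block and with any 1 replicate number left out. For each of the 5 genes the groups did not overlap. All 4 IFIT genes were lower at an unadjusted p under 0.05, as were 15 members in all with 0 higher, where 9.28% and 9.17% of all genes were. Above 0 lay 19 of 49 members, and 48.5% of all genes.

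ISG15, MX1 and OAS1 were not called in either treatment. ISG15 was at 361, 58.1 and 74.9 CPM in cGAS KO DMSO, where 361 is the replicate 1 that stood apart, and at 112, 95.5 and 95.9 in Cas9 DMSO (0.47 ± 0.63). In MPS1i it gave -1.80 ± 0.64 (adjusted p = 0.152). MX1 was at 3.75, 4.45 and 2.08 CPM in Cas9 DMSO and at 1.67, 4.51 and 1.86 in cGAS KO DMSO (-0.39 ± 0.31). OAS1 was at 69.6, 88.3 and 92.2 CPM against 41.5, 74.6 and 139 (-0.10 ± 0.28).

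Without both libraries that stood apart, an alternative chosen after the data were seen, 10 members were called lower and 3 higher in DMSO, where 5.28% and 8.05% of all genes were. In MPS1i 12 were lower and 1 higher, where 5.16% and 6.48% of all genes were. Without replicate 3, which leaves 2 batches, edgeR called 0 members in either treatment, and 0 of all 21175 genes. At an unadjusted p under 0.05, 1 member was higher and 6 lower in DMSO, where 4.5% and 3.5% of all genes were. In MPS1i 0 and 10 were, against 3.95% and 4.32% of all genes. IFIT2 then gave -2.02 and OASL -3.90 in MPS1i. Without replicate 1 or 2, 3 members were called lower in MPS1i (0.332% and 0.301% of all genes), and without replicate 2, 1 was in DMSO (0.363%). Epithelial markers and the position of genes also moved with the comparison. The epithelial list summed to 3753 to 5274 CPM in Cas9 and 9791 to 19683 in cGAS KO in DMSO, and to 3958 to 8618 and 9018 to 10753 in MPS1i. CDH1, the E-cadherin gene, was called in DMSO (3.53 ± 0.47, adjusted p = 0.00202) and in MPS1i (3.54 ± 0.48, adjusted p = 0.00226), and EPCAM in DMSO (2.71 ± 0.41, adjusted p = 0.00392). No listed leukocyte, fibroblast or endothelial marker was called there. The part of these markers in the results was not tested. Genes within 10 Mb of IFIT1 on chromosome 10 had a median log2 difference of -0.46 in DMSO and -0.39 in MPS1i (97 genes), and those around OASL -0.05 and 0.15 (117 genes), around HERC5 0.11 and 0.07 (54 genes). The part of the neighbourhood in the values of the IFIT genes was not tested. The IFIT1, IFIT2 and IFIT3 genes overlap LIPA on the opposite strand, and the strand setting of the counting is not given in the sources used here.

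**Figure D5:**
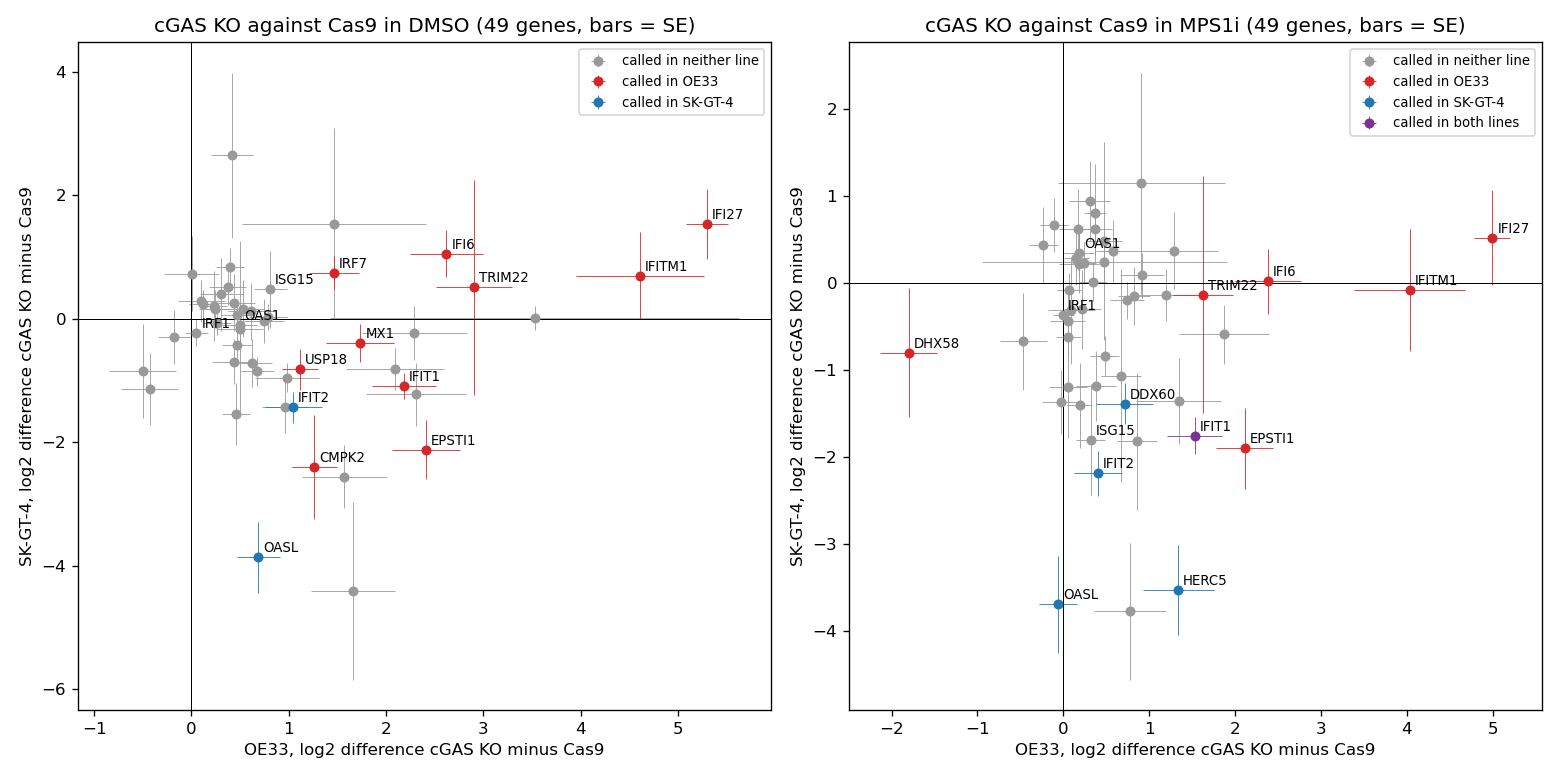
Log2 difference of cGAS KO minus Cas9 for the 49 members tested in both lines, OE33 against SK-GT-4, in DMSO and in MPS1i, with bars of 1 SE and color by the call (adjusted p ≤ 0.01). In DMSO 24 members lie above 0 in OE33 but below 0 in SK-GT-4, with 0 the other way round. The share of all genes with such signs was not counted.

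Side by side, 24 of the 49 members lay above 0 in OE33 and below 0 in SK-GT-4 in DMSO, 22 lay above 0 in both, 3 below 0 in both and 0 the other way round. In MPS1i these counts were 25, 17, 5 and 2. The test of the difference between the lines was added after the data were seen and is given among the results for a closer look.

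The interferon pathway itself was followed with a list of 26 genes that are not members, from cGAS to the receptors, of which 21 were tested in OE33 and 18 in SK-GT-4. Interferon genes were close to silent. IFNB1 had 20 counts over the 12 OE33 libraries, with a highest level of 0.324 CPM, and 0 in SK-GT-4, and IFNG had 0 in both. IFNL1 reached at most 0.378 CPM. Of the list, 1 gene was higher and 1 lower in OE33 cGAS KO in DMSO, and 1 higher and 2 lower in MPS1i, where 1% and 0.465% of all genes, and 1.88% and 0.955%, were called. CGAS was the gene lower in both treatments (-2.50 and -3.77), SOCS3, a brake on receptor kinases, was the gene higher in both (0.84 and 0.87), and STING, listed as TMEM173, was lower in MPS1i (-1.26). In SK-GT-4 CGAS alone was called, in DMSO (-2.01) and in MPS1i (-2.60), where 0.658% and 0.597% of all genes were lower. Between the lines in Cas9 DMSO, IFNGR2 (1.36) and SOCS3 (1.83) were higher in OE33, 2 of 22 genes tested, a share near the background of 9.63%.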

How the data were processed

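Poly(A)-selected RNA of 24 libraries was sequenced with paired 150-base reads. The authors aligned reads with HISAT2 2.0.5 (GRCh38) and obtained gene counts from featureCounts 1.5.0. The deposited values are raw counts for 58735 genes, with no normalization. The annotation release, the strand setting and the handling of reads with several matches are not given in the sources used here, and 25 of the 50 members overlap another gene, 10 of them on the same strand.

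The 50 members and the lists were chosen with earlier results of these data known. Counts were analysed in R 4.3.3. Genes with a total of at least 5 counts and a nonzero count in at least 4 libraries were kept (the study's filter). Each line was fitted with edgeR 4.0.16 (TMM scaling, a term per group, a block per batch) and tested with its quasi-likelihood test, with Benjamini-Hochberg adjustment over all genes kept. The call was an adjusted p ≤ 0.01. The lines were compared in 1 fit of all 24 libraries. Levels are CPM with TMM scaling within a line, and log2 CPM used a prior count of 2. Alternatives were DESeq2 1.42.0 with its size factors, an adjusted p of 0.05, no filter, a prior count of 0.5, other blocks, leaving out each replicate, and a shorter motif. The fit was tested on simulated counts with known changes.

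The labels give each library's batch, which pairs DMSO with MPS1i. Over genes, the deviations from the group mean of such pairs correlated at a median r of 0.677 (0.434 to 0.813) for OE33 and 0.446 (0.104 to 0.720) for SK-GT-4. The block is shared by genotypes, and Cas9 with cGAS KO libraries of the same treatment and batch gave 0.522 (0.332 to 0.683) and 0.270 (-0.225 to 0.406). No 2 libraries were identical. In bulk RNA, fewer cells that express a gene and less RNA per cell cannot be told apart.

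Named with values in every library were IFIT2, IRF1, IFIT1, ISG15, MX1 and OAS1, and in each comparison the called members, at most the 8 of smallest p in each direction, or the 3 of smallest p where none was called. Others named were chosen after their values were seen. Promoters shown are of 6 named members whose window holds the motif.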

Additional observations from a re-analysis of the deposited data

Results flagged for a closer look

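The difference between cGAS KO and Cas9 was compared between the lines in the fit of all 24 libraries, a test added after the data were seen. In DMSO 10 members had a higher cGAS KO minus Cas9 difference in OE33 than in SK-GT-4 and 0 a lower one, where 0.608% and 1.05% of 25181 genes were called (edgeR, adjusted p ≤ 0.01). In log2 units OE33 minus SK-GT-4, OASL was at 4.53 ± 0.61 (SE), EPSTI1 at 4.49 ± 0.61, HERC5 at 4.08 ± 0.74, IFI27 at 3.82 ± 0.58, IFIT1 at 3.27 ± 0.46, IFIT2 at 2.48 ± 0.45, USP18 at 1.95 ± 0.37 and DDX58 at 1.55 ± 0.30. CMPK2 and IFIT3 were the others.

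In MPS1i 7 members were called higher and 0 lower, where 0.659% and 0.909% of all genes were. HERC5 was at 4.85 ± 0.73, IFI27 at 4.49 ± 0.54, RSAD2 at 4.47 ± 0.92, EPSTI1 at 3.98 ± 0.59, OASL at 3.63 ± 0.58, IFIT1 at 3.28 ± 0.45 and IFIT2 at 2.61 ± 0.44. For IFIT1 and IFIT2 in DMSO, the OE33 values were 2.19 and 1.05 and the SK-GT-4 values -1.09 and -1.43. Without replicate 3, which leaves 2 batches, 0 members were called in either treatment by edgeR, where 0.00854% and 0.0171% of all genes were higher. At an unadjusted p under 0.05, 16 were higher and 0 lower in DMSO (2.91% and 3.36% of all genes) and 14 and 1 in MPS1i (4.18% and 4.26%). DESeq2 on all libraries called 16 and 12, where 1.88% and 2.21% of all genes were higher. Without the 3 libraries that stand apart 23 and 20 were, where 3.44% and 3.84% of all genes were higher. Since each line has its own clones, the line and the clone cannot be told apart.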

How the results depend on the processing

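The causes of the changes below were not tested. Percentages in brackets are the shares of all genes called in the same direction, where they were counted. At an adjusted p of 0.05 they were not counted, so member counts at that threshold have no background. In OE33 cGAS KO against Cas9 in DMSO, 10 higher (1%) became 19 at an adjusted p of 0.05 and 30 with no filter (2.46%). It became 1 with no replicate block (0.0441%) and 19 without cGAS KO DMSO replicate 2 (2.92%). With a replicate number left out it was 1 to 12 (0.0322% to 1.4%). In MPS1i, 6 higher (1.88%) became 12, 18 (3.37%), 1 (0.0587%) and 11 (3.91%) in the same order. With a replicate left out it was 1 to 6 (0.059% to 1.35%). The 1 lower became 0 with no block (0.0245%) and with any 1 replicate left out (0.0376% to 0.597%). In SK-GT-4 in DMSO, 2 lower (0.658%) became 6 at 0.05, 7 in DESeq2 (2.72%), 1 with no block (0.347%) and 4 without Cas9 MPS1i replicate 2 (1.83%). Without both libraries that stood apart it became 10 (5.28%), with 3 higher (8.05%). With a replicate left out 0 to 2 were lower (0% to 0.363%). In MPS1i, 5 lower (0.597%) became 8 in DESeq2 (2.92%) and 12 without both (5.16%), with 1 higher (6.48%). With a replicate left out 0 to 3 were lower (0% to 0.332%). For MPS1i against DMSO, OE33 Cas9 went from 0 higher to 2 with no filter (0.275%) and 3 with the replicate block per genotype and batch (0.299%). In the same order OE33 cGAS KO went to 2 and 1 higher (0.35% and 0.343%) and 1 lower in each (0.193% and 0.152%). SK-GT-4 Cas9 went to 1 higher without both libraries (0.103%). Between the lines in Cas9 DMSO, 3 lower (12.4%) became 5 at 0.05, with a replicate block by batch number (13.5%) and in DESeq2 (14.5%). It became 6 with no filter (10.1%) and 1 to 2 with a replicate left out (6.61% to 9.89%). The added line difference in DMSO went from 10 higher (0.608%) to 2 with no block (0.135%), 16 in DESeq2 (1.88%) and 23 without 3 libraries (3.44%). With a replicate left out it was 0 to 13 (0.00854% to 0.985%). In MPS1i it went from 7 higher (0.659%) to 11 at 0.05, then 3 (0.143%), 12 (2.21%) and 20 (3.84%) in the same order. With a replicate left out it was 0 to 8 (0.0171% to 0.594%). The blocks moved no other count of called members by more than 1.5 times. Unadjusted counts for MPS1i moved more. In OE33 Cas9 10 higher (3.52%) became 19 with the block per genotype and batch (4.99%) and 2 with no block (1.69%). In SK-GT-4 Cas9 4 (2.01%) became 12 with the block per genotype and batch (2.47%). Values near 0 changed sign, given here with the range over replicates left out in brackets. For genotype in OE33, IRF1 in MPS1i went to 0.0078 with no filter and 0.0012 with no block (-0.079 to 0.051), and IRF1 in DMSO ranged from -0.042 to 0.22, IFIT2 in MPS1i from -0.040 to 0.78 and OAS1 in MPS1i from -0.011 to 0.40. For MPS1i in OE33, IFIT1 ranged from -0.052 to 0.60 in Cas9 and MX1 from -0.51 to 0.18 in cGAS KO. Without replicate 1 of cGAS KO in DMSO, and without both libraries, SK-GT-4 gave IFIT1 0.057 and 0.046 (to 0.050) and ISG15 0.18 and 0.039 (from -1.40) for MPS1i in cGAS KO, ISG15 -0.62 and -0.52 (-0.50 to 0.87) and OAS1 0.20 and 0.19 (-0.46 to 0.18, and 0.029 with no block) for genotype in DMSO, and MX1 0.057 and 0.051 (-0.58 to 0.25) for the difference of MPS1i effects. OAS1 for MPS1i in SK-GT-4 Cas9 ranged from -0.090 to 0.24. The MPS1i difference between lines gave IFIT2 -0.033 in DESeq2 and -0.11 without replicate 2 of SK-GT-4 Cas9 in MPS1i (-0.060 to 0.16), IRF1 -0.026 with no block and -0.045 in DESeq2 (-0.18 to 0.14), MX1 -0.015 to 0.23 and OAS1 -0.071 to 0.49. The added difference gave ISG15 from -0.30 in DMSO and OAS1 -0.35 to 0.21 in MPS1i. The shorter motif (GAAA, any 2 bases, then GAA) was in 71.8% of the members with a window and 9.86% of genes. Groups of 3 and a variation of 34% in SK-GT-4 limit what could be called.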
